A study of Mus musculus with 24 samples.

Results

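The comparison described here sets mouse retina at postnatal day 14 (P14) against postnatal day 10 (P10), the days on either side of eye opening. Its members are the 2 libraries labelled P14 and the 2 labelled P10, chosen by their labels, 4 of the 24 libraries of a series that follows the retina over 12 ages from embryonic day 11 (E11) to P28 with 2 libraries per age. All came from the strain given as C57/Bl6N, whose substrain is known for a loss-of-function allele of Crb1. No treatment or genetic change is named, and retinas were excised, frozen on dry ice and lysed in Trizol. At both ages a directional library of polyadenylated RNA was made from the same input of total RNA (1 µg). The labels name neither sex nor the hour of dissection. Nor do they state the source of the replicates (animal, litter or pool). The p-values thus set the difference between ages against the spread of libraries of the same age, estimated over all 24 libraries. Whether that spread includes differences between animals or litters is not known.

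Around eye opening the mouse retina turns from spontaneous waves of activity to signalling driven by patterned light. Rods and cones build their outer segments, the membrane stacks that hold the visual pigment. Bipolar cells carry their signal inward, amacrine and horizontal cells shape it by inhibition, ganglion cells send it to the brain, and Müller glia clear glutamate and potassium. Calcium entering active neurons switches on immediate early genes within minutes through the factor CREB, and their products act on later genes.

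Library totals were 29444110 and 29197157 estimated counts at P10 and 31268018 and 31824287 at P14, against 24567532 to 35898879 over the whole series. Levels are given as CPM, counts scaled to a common library size with TMM factors, always for replicate 1 and then replicate 2. The female transcript Xist stood at 744 and 3143 CPM at P10 and at 0.386 and 0.452 at P14 (log2 change -12.17, adjusted p = 0.0548), while the Y-linked Ddx3y stood at 85.6 and 25 at P10 and at 98.8 and 121 at P14. Both P10 libraries thus held Xist together with Y-linked RNA, and both P14 libraries held Y-linked RNA with Xist near 0. Rows that overlap or resemble ribosomal RNA (Rn18s-rs5, AY036118, Lars2, Mir6236 and AA474408, picked after their values were seen) took 0.0838% and 0.0853% of counts at P10 and 0.647% and 0.585% at P14, and reached 3.01% at E12. Crystallin and lens fibre transcripts summed to 31 and 63.5 CPM at P10 and to 31.9 and 192 at P14, so P14 replicate 2 stood apart. Whether sex, ribosomal RNA or lens RNA had a part in the results below was not tested.

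**Figure D1:**
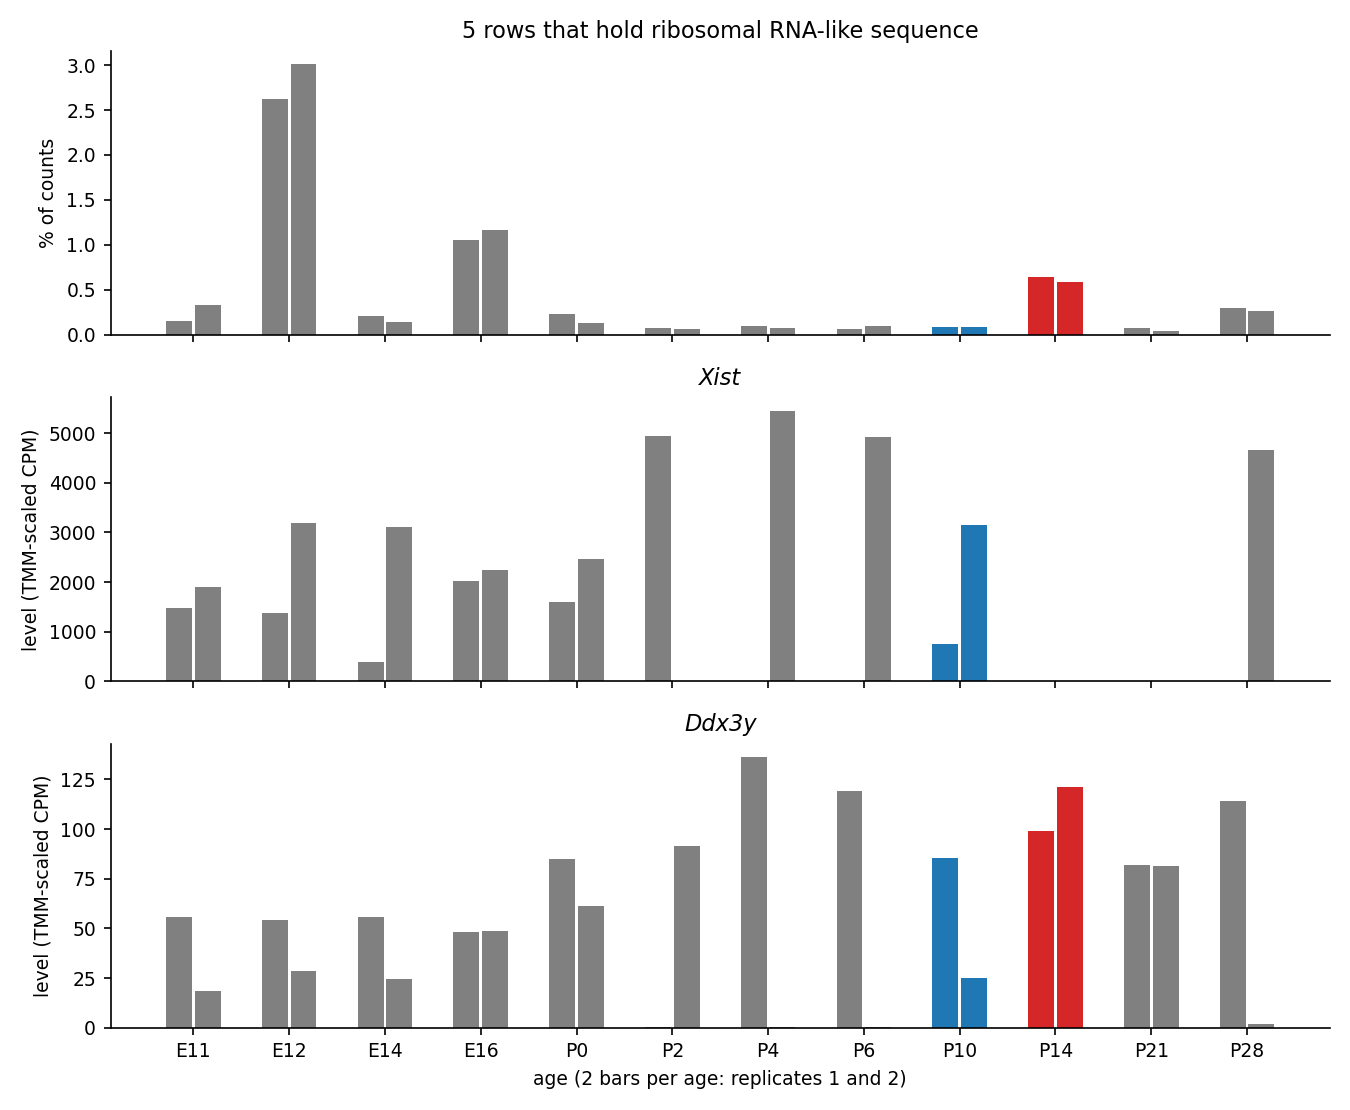
Share of counts in ribosomal-RNA-like rows (percent) and levels of Xist and Ddx3y (CPM, linear axes) in each of the 24 libraries by age, 1 bar per library, with P10 in blue and P14 in red. The P14 libraries lie above the P10, P21 and P28 libraries in the ribosomal share, at 0.647% and 0.585%, and near 0 for Xist.

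Of 21858 genes tested, 754 (3.45%) rose and 235 (1.08%) fell from P10 to P14, by the edgeR quasi-likelihood test with an adjusted p (Benjamini-Hochberg) under 0.05 and a change of at least 2-fold, 989 genes (4.52%) in all. Genes said to have risen or fallen passed both thresholds. The step was smaller in number than its neighbours, with 1720 genes (7.87%) from P6 to P10 and 2049 (9.37%) from P14 to P21, comparisons that share its libraries. The comparison from P14 to P21 also spans more days. Of the genes that rose, 433 reached at least 10 CPM, against 70 of those that fell. Without P10 replicate 2 the counts were 406 and 138, without P14 replicate 2 they were 579 and 144, and a test against a 2-fold change itself called 51 and 11. Scaling by library size alone, which put the median log2 change of all genes at -0.099, gave 599 risen and 353 fallen genes, or 62.9% risen among the calls against 76.2%.

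Of 47 gene lists, those of voltage-gated channels, the circadian clock and immediate early genes held the most risen genes for their size among lists of over 10, and cell cycle genes the most fallen ones. They are described first by response to activity and time of day, then along the visual pathway. The median log2 change of all tested genes was -0.01, with quartiles of -0.31 and 0.38. Of all 21858 tested genes 3.45% rose and 1.08% fell, the shares to set beside each list count below. With no fold threshold 2212 of them were higher and 1878 lower. In bulk tissue, more cells of a type and more RNA per cell cannot be told apart.

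**Figure D2:**
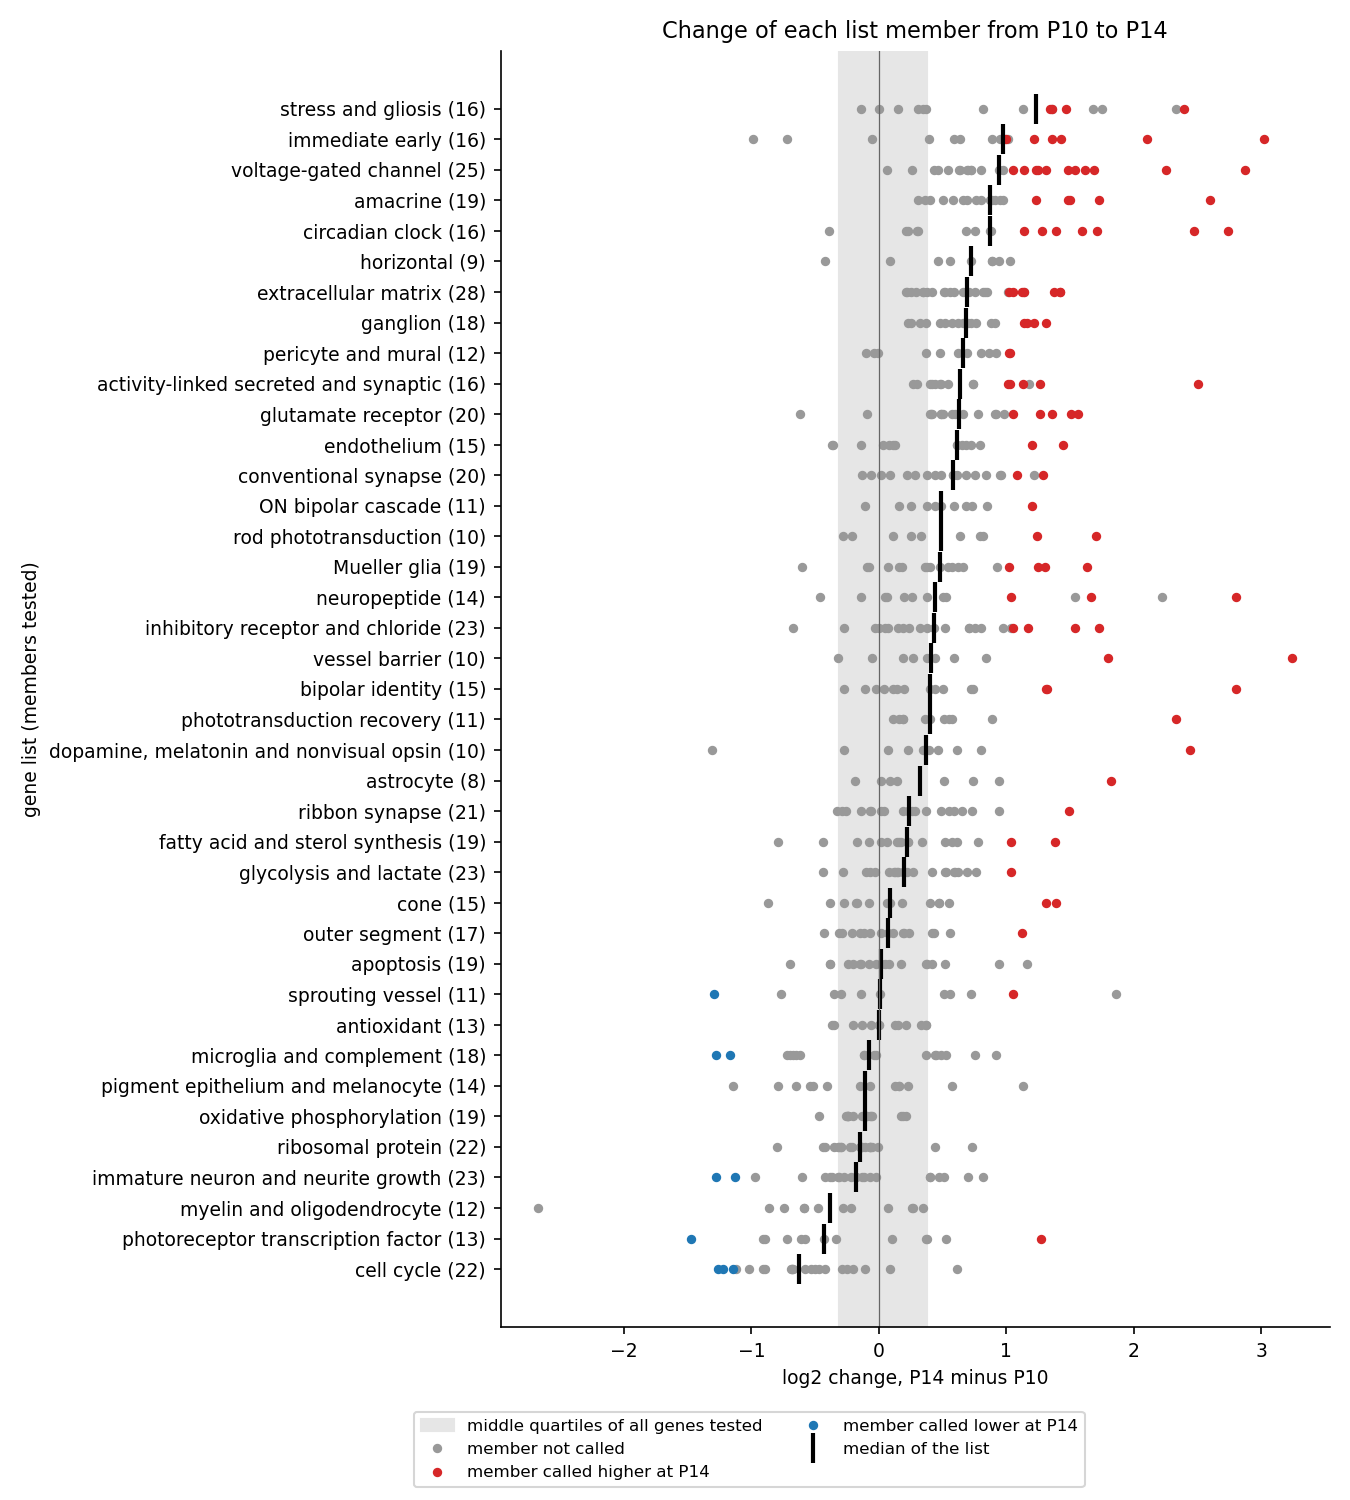
Log2 change from P10 to P14 of each tested member (points) and the median (black bar) of lists with at least 8 tested members, without the crystallin list. Red points are genes that rose past both thresholds, blue points genes that fell past both and grey points the rest, and the grey band marks the quartiles of all tested genes, -0.31 to 0.38. The stress and gliosis list has the highest median drawn, 1.23, and those of the immediate early, voltage-gated channel and circadian clock lists also lie to the right of the band. Medians of other lists lie there too, such as amacrine at 0.87. The crystallin list, not drawn, had a median of 2.21 with no member past both thresholds.

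Immediate early genes, the transcription factors first made when a neuron fires, gave 6 risen genes among 16 tested, with a median log2 change of 0.97. Promoters of the 3 matched risen members that hold the CRE core, the letters bound by CREB, are shown because these genes moved together. Each run is the 250 bases before the start of a RefSeq transcript (GRCm38.p6), 5′ to 3′ on the gene's strand, with TGACGT or its reverse complement in capitals.
Fos, chr12:85473640-85473889, plus strand: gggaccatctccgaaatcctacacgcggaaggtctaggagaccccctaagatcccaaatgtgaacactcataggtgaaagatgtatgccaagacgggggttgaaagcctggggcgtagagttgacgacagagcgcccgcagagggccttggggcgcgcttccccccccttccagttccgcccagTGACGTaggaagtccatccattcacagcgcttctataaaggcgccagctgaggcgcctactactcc
Npas4, chr19:4989972-4990221, minus strand: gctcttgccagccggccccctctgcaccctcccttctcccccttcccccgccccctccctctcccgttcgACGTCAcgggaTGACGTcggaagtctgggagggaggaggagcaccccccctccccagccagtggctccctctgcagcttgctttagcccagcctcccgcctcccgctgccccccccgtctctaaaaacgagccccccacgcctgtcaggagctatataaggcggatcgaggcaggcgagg
Nr4a3, chr4:48045055-48045304, plus strand: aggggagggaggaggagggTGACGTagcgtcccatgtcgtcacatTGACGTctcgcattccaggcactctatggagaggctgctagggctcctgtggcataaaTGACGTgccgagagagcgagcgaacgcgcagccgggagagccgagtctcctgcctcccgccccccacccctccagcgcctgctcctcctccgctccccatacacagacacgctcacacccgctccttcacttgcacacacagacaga
Fos holds 1 site, Npas4 2 and Nr4a3 3. Of the 6 risen genes 5 were matched. Egr1 was not among them because its promoter was left out of the search, so its sites were not counted. The core occurred in 6.47% of the 32851 windows of this length that were searched, counted on both strands. These windows do not cover the whole genome. A match of letters is a description and not a bound site.

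Fos, a subunit of the AP-1 factor, stood at 2.79 and 2.37 CPM at P10 and at 17.1 and 24.9 at P14. Both P14 libraries were far above both at P10, a log2 change of 3.02 (SE 0.32, adjusted p = 1.6e-05). At P6 it had stood at 5.12 and 5.67, so the P10 libraries were the lowest of these 3 ages. Egr1, a zinc finger factor, moved in the same way, from 39.7 and 38 CPM at P6 to 9.37 and 8.39 at P10 and 30.9 and 45 at P14 (log2 2.1, SE 0.51, adjusted p = 0.00839). Its adjusted p was 0.0894 without P10 replicate 2 and 0.0685 without P14 replicate 2.

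Npas4, which is made in response to calcium and adjusts inhibitory synapses, stood at 1.35 in both P10 libraries and at 3.57 and 2.71 CPM at P14 (log2 1.22, SE 0.269, adjusted p = 0.00443). Unlike Fos and Egr1 it was not lower at P10 than at P6, where it stood at 0.953 and 1.26. Its adjusted p was 0.0565 without P14 replicate 1. The nuclear receptors Nr4a1 (12.3 and 10.6 CPM at P10, 20.9 and 25 at P14, adjusted p = 0.00104) and Nr4a3 (1.06 and 0.658, then 2.67 and 1.97, adjusted p = 0.012) also rose, by 1.00 and 1.43 on the log2 scale. Nr4a1 changed by 0.90 without P10 replicate 2 and by 0.87 without P14 replicate 2, below 2-fold. For Nr4a3 the adjusted p was 0.16 without P10 replicate 2 and 0.104 without P14 replicate 1. Junb, a partner of Fos, rose by 1.36, with an adjusted p between 0.0875 and 0.105 without either P10 library or P14 replicate 1. The list was not uniform: Btg2, an inhibitor of proliferation, stood lower at P14 (131 and 145, then 85.7 and 82.4 CPM) without reaching 2-fold, and Jun had a log2 change of -0.05. Stress genes stood higher at P14 as well, with 4 of 16 past both thresholds against 3.45% of all genes and a median of 1.23. Whether tissue stress had a part in the immediate early genes was not tested.

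Genes for secreted and synaptic proteins that follow activity gave 5 risen genes among 16, with a median log2 change of 0.64. Vgf, a neuropeptide precursor induced by neurotrophins, stood at 2.7 and 1.48 CPM at P10 and at 11.4 and 12.3 at P14 (log2 2.50, SE 0.408, adjusted p = 0.000462). Pcsk1, the protease that cuts such precursors, went from 3.95 and 4.21 to 10 and 9.49 (log2 1.26), and its adjusted p was 0.0522 without P10 replicate 2. The neuronal pentraxins, which gather AMPA receptors at synapses, rose by little more than 2-fold: Nptx1 by 1.01, Nptx2 by 1.03 and their receptor Nptxr by 1.13 on the log2 scale. With length and GC trends removed the changes were 0.77, 0.91 and 0.70, and without P10 replicate 2 that of Nptx1 was 0.89. For Nptx2 the adjusted p lay between 0.0513 and 0.0876 whichever single library of these ages was left out. The neurotrophin Bdnf did not pass, at 6.23 and 6.05 CPM at P10 and 8.91 and 8.94 at P14 (adjusted p = 0.144), although the groups did not overlap.

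**Figure D3:**
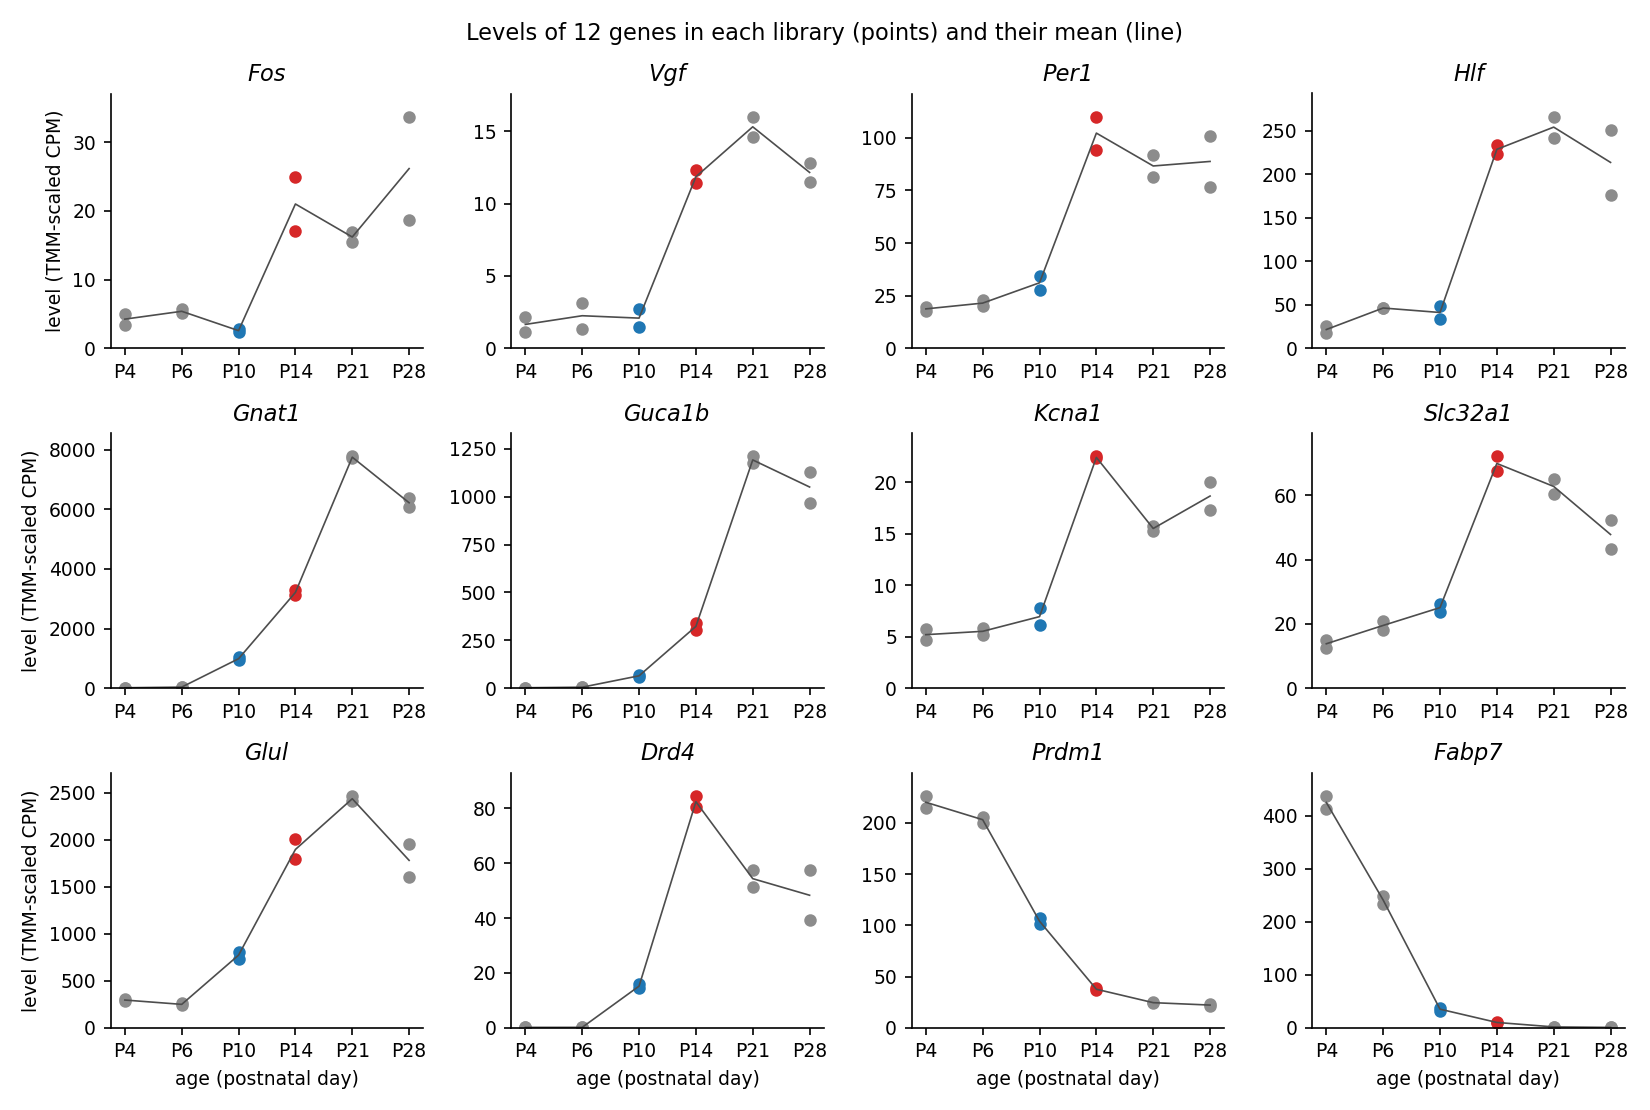
Levels (CPM) of 12 genes at P4, P6, P10, P14, P21 and P28, 1 point per library with a line through the means; P10 libraries in blue and P14 libraries in red. The points of Fos at P10 lie below those of the other 5 ages, Guca1b and Gnat1 go on rising to P21, Drd4 peaks at P14, and Prdm1 and Fabp7 fall.

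The circadian clock list had 7 risen genes among 16, with a median log2 change of 0.87. The clock is a loop in which Clock and Arntl (Bmal1) bind E-box letters and drive their own repressors, the Per and Cry genes, and output factors such as Dbp and Hlf. Hlf (chr11:90336536-90390895) stood at 34.2 and 48.2 CPM at P10 and at 223 and 234 at P14, a log2 change of 2.47 (SE 0.264, adjusted p = 1.7e-05). From transcript estimates summed per gene its change was 1.85. Per1 stood at 34.6 and 27.7 and then at 94.4 and 110 (log2 1.71, SE 0.177, adjusted p = 1.48e-05). Per2 went from 5.07 ± 1.31 CPM at P10 to 33.9 ± 8.29 at P14 (mean ± SD, n = 2, log2 2.74), but by 1.43 from summed transcripts and with an adjusted p of 0.0751 without P10 replicate 2.

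The repressor Nr1d1 (Rev-erbα) stood at 32.9 in both P10 libraries and at 82.9 and 89.6 CPM at P14, a log2 change of 1.39 (adjusted p = 4.64e-05). Dbp rose by 1.28, the repressor Bhlhe40 by 1.59 and Ciart, an inhibitor of Clock and Arntl, by 1.14. Ciart changed by 0.84 without P14 replicate 2, and its adjusted p was 0.0561 and 0.0507 without P10 replicates 1 and 2. The activator Arntl stood lower, at 130 and 137 CPM at P10 and 96.4 and 107 at P14, with a log2 change of -0.39 that did not pass. The 7 risen members were these repressors and output factors. Others of those kinds, Per3, Cry1, Cry2, Nr1d2, Tef and Bhlhe41, did not pass both thresholds, nor did the activators Clock (0.31) and Npas2 (0.88). With no fold threshold 10 of the 16 were higher, and the difference between activators and the rest was not tested. The labels do not name the hour of dissection, so for these genes hour of day and age cannot be told apart. From P14 to P21 the list's median log2 change was 0.11, and Hlf stood at 266 and 242 CPM at P21.

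Promoters of the 2 matched risen clock genes that hold the E-box CACGTG are printed for the same reason, with the E-box in capitals. The choice of this motif was made after the values were seen.
Per1, chr11:69098699-69098948, plus strand: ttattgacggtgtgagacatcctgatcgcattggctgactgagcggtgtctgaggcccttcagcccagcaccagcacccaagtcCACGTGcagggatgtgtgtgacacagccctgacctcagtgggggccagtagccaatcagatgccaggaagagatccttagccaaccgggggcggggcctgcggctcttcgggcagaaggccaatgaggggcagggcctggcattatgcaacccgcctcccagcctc
Ciart, chr3:95882229-95882478, minus strand: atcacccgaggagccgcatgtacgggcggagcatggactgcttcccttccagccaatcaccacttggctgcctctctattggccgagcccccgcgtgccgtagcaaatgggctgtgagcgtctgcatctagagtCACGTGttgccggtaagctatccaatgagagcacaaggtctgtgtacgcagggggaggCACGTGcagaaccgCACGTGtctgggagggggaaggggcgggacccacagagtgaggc
Per1 holds 1 such site and Ciart 3, and the motif occurred in 6.02% of all windows on either strand. Of the 7 risen clock genes 5 were matched, with 6 windows. Hlf and Per1 also hold the CRE core TGACGT. Of 2 further motifs counted, the EGR core GCGTGG occurred in 13.5% of all windows. It was found in Dbp and Per1, in the immediate early genes Junb and Npas4, and in the cone gene Slc24a2. The CRX core TAATCC occurred in 6.25% of all windows. It was found in 0 matched genes of these lists and in 0 of 4 matched risen phototransduction, cone and outer segment genes.

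Photoreceptor genes formed a mixed picture. Rod phototransduction, the cascade from the capture of light to the closing of cation channels, gave 2 risen genes among 10 (median log2 change 0.49), and the genes that end the light response 1 among 11 (0.40). The outer segment list gave 1 among 17 (0.07) and the cone list 2 among 15 (0.09). Over all tested genes 3.45% rose, and 1 risen gene in a list of this size is near that share.

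Guca1b (chr17:47385393-47392967), the calcium sensor that restores cGMP after light, had the smallest adjusted p of these lists. It stood at 60.6 and 68 CPM at P10 and at 305 and 340 at P14 (log2 2.33, SE 0.147, adjusted p = 1.68e-07), and at 1211 and 1174 at P21. Gnat1, the α subunit of rod transducin, stood at 937 and 1036 and then at 3302 and 3122 (log2 1.70, SE 0.257, adjusted p = 0.000271). Slc24a1, the exchanger that extrudes calcium from the rod outer segment, stood at 398 and 417 and then at 995 and 932 (log2 1.24). These were the 3 risen genes of the rod cascade and its recovery. Pde6b, a catalytic subunit of the rod phosphodiesterase, had a log2 change of -0.21.

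Among cone genes the middle-wave opsin Opn1mw rose from 32 and 31.9 CPM to 80.2 and 78.2 (log2 1.31, SE 0.214, adjusted p = 0.00106). The short-wave opsin Opn1sw stood at 205 and 227 and then at 204 and 245, and the ranges overlapped. Gnb3, a transducin β subunit of cones, went from 511 and 566 to 300 and 287 (log2 -0.87), below 2-fold. Slc24a2, the cone exchanger, rose by 1.39 (adjusted p = 0.0249), with an adjusted p between 0.0711 and 0.18 whichever single library of these ages was left out. Fscn2, an actin bundler of the photoreceptor, rose by 1.12, and by 0.96 without P10 replicate 1.

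Photoreceptor transcription factors stood mostly lower at P14, with a median log2 change of -0.43 over 13 genes and 1 gene past both thresholds each way. Prdm1 (Blimp1), which holds young photoreceptors back from a bipolar fate, fell from 107 and 101 CPM to 36.9 and 38.4 (log2 -1.47, SE 0.175, adjusted p = 4.12e-05). Esrrb, a nuclear receptor needed for rod survival, rose from 103 and 119 to 254 and 283 (log2 1.27, SE 0.143, adjusted p = 2.63e-05). The regulator Crx stood at 1481 and 1605 CPM and then at 1097 and 1192 (log2 -0.43, adjusted p = 0.122), and the rod factor Nrl at 984 and 1198 and then at 1135 and 1202. Kcnj14, an inwardly rectifying potassium channel, went on rising to P21 as Gnat1 and Guca1b did. It stood at 23 and 24.7 CPM at P10, at 118 and 109 at P14 and at 536 and 550 at P21, with a log2 change of 2.25 from P10 to P14 (SE 0.125, adjusted p = 5.13e-08).

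At the first synapse and in bipolar cells 5 genes of 3 lists passed. The ribbon synapse list gave 1 risen gene among 21 (median 0.24), the ON bipolar cascade 1 among 11 (0.49) and bipolar identity genes 3 among 15 (0.40). With no fold threshold 8 ribbon synapse genes were higher, against 2212 of all 21858 tested genes. Elfn2, a leucine-rich repeat adhesion protein of synapses, rose from 18.4 and 12.6 CPM to 42.4 and 44.8 (log2 1.49, adjusted p = 0.000177). Grm6, through which ON bipolar cells sense glutamate, stood at 248 and 217 and then at 225 and 206, a difference within the spread of the libraries. Gng13, the G protein γ subunit of that cascade, rose by 1.20, with an adjusted p of 0.0633 without P10 replicate 1 and 0.0562 without P14 replicate 2. Neto1 (1.32), the pacemaker channel Hcn4 (1.31) and the peptide Cck were the bipolar genes that rose, Cck from a low level of 0.128 and 0.197 CPM to 1.29 and 1.03. The dopamine receptor Drd4 (chr7:141292006-141294999), which lowers cAMP in photoreceptors, rose from 14.4 and 16 CPM to 80.4 and 84.5 (log2 2.44, SE 0.194, adjusted p = 2.65e-06), and stood at 57.4 and 51.4 at P21. Th, the enzyme of dopamine synthesis, stood at 1.7 and 1.35 and then at 2 and 2.68 CPM and did not pass.

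The list of voltage-gated channels gave the most risen genes of any list, 11 of 25 tested, and a median log2 change of 0.94. Its risen genes include Kcnj14, the inwardly rectifying channel described above. Sodium channel subunits were among them. Scn1a rose by 1.14 on the log2 scale, and by 0.96 without P10 replicate 2, and Scn2b rose by 1.25. Scn4b, the subunit of resurgent current, went from 0.834 and 0.296 to 4.05 and 4.29 (log2 2.87). Its change was 3.80 without P10 replicate 1, and without P10 replicate 2 it was 2.32 with an adjusted p of 0.0777. The potassium channel Kcna1, which sits beside the axon initial segment, stood at 7.8 and 6.08 CPM and then at 22.3 and 22.5 (log2 1.69, SE 0.251, adjusted p = 0.000244). Kcna2 (1.23), Kcnc1 (1.31) and Kcnc2 (1.05), the last 2 being channels of fast-spiking cells, also rose, as did Hcn2 (1.48) and the presynaptic calcium channel Cacna1b (1.54). For Kcnc2 the adjusted p was 0.0825 without P10 replicate 2 and 0.0571 without P14 replicate 2. Many of these genes are long, and with the trend on transcript length removed the list's median was 0.61, with Scn1a at 0.84, Kcna2 at 0.84 and Kcnc2 at 0.81.

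Glutamate receptors gave 5 risen genes among 20 (median 0.63) and inhibitory receptors and chloride transporters 4 among 23 (0.43). The NMDA receptor subunit Grin2a, whose share grows as synapses mature, stood at 12.6 and 10.5 CPM and then at 36.2 and 30 (log2 1.51, SE 0.236, adjusted p = 0.000337). Its early counterpart Grin2b rose too, from 41.4 and 30.9 to 103 and 83.1 (log2 1.36), so both subunits rose in this step. With the trend on transcript length removed Grin2b changed by 0.96, below 2-fold. For Grin2b the adjusted p was 0.0918 without P10 replicate 2 and 0.0542 without P14 replicate 1. Grin2d rose by 1.56, with an adjusted p of 0.13 without P10 replicate 2. The glycine receptor Glra1 went from 4.11 and 2.6 to 11.5 and 10.7 CPM (log2 1.73), and Gabrr2, a GABA-C receptor subunit of bipolar cells, from 12.9 and 10.4 to 30.9 and 36.9 (log2 1.54). Slc12a5 (KCC2), the transporter that makes GABA inhibitory, stood at 347 and 309 and then at 563 and 579, a log2 change of 0.80 below the fold threshold.

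Conventional synapse genes gave 2 risen members among 20 and a median of 0.58. Syn1, a synaptic vesicle protein, stood at 54.6 and 51.2 CPM and then at 132 and 128 (log2 1.29).

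Amacrine genes gave 5 risen members among 19 (median 0.87). Slc32a1, which loads GABA and glycine into vesicles, stood at 26.3 and 23.8 CPM and then at 72.1 and 67.7 (log2 1.48, SE 0.196, adjusted p = 0.000102). Gad2, which makes GABA, rose by 1.23 and Nos1, the neuronal nitric oxide synthase, by 1.73 (6.77 and 4.8, then 20 and 18.3). Pvalb, a calcium buffer, went from 0.385 and 0.658 to 2.83 and 3.52 (log2 2.60). The cholinergic pair differed in outcome: Slc18a3, the vesicular transporter, rose by 1.5, with an adjusted p of 0.0758 without P10 replicate 2, whereas Chat stood at 8.16 ± 1.12 and then at 14.9 ± 0.942 CPM (mean ± SD, n = 2) and did not pass the edgeR test (adjusted p = 0.128). The difference between these 2 genes was not tested. Of the neuropeptides Penk rose by 1.66 and Pdyn by 1.04, the latter with an adjusted p of 0.0825 without P10 replicate 2 and 0.0565 without P14 replicate 1.

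Ganglion cell genes gave 4 risen members among 18 (median 0.68). The neurofilament Nefh, a protein of thick axons, stood at 61.3 and 51.5 CPM and then at 142 and 138 (log2 1.31, SE 0.184, adjusted p = 0.000156), Nefm rose by 1.16 and the RNA-binding protein Rbpms by 1.14, the latter by 0.97 from summed transcripts. Isl2, a transcription factor of these cells, rose by 1.22, and by 0.99 with an adjusted p of 0.0558 without P10 replicate 1. None of the 9 horizontal cell genes passed both thresholds with edgeR or DESeq2 (3 had an unadjusted p under 0.05), with a median of 0.72, and Lhx1 went from 7.25 and 6.68 to 12.8 and 12.9 CPM (adjusted p = 0.282).

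Müller glia genes gave 4 risen members among 19 (median 0.48). Glul, the synthetase that turns glutamate into glutamine, stood at 811 and 734 CPM and then at 1790 and 2002 (log2 1.30, SE 0.113, adjusted p = 3.81e-06). Kcnj10, the potassium channel of these glia, went from 30 and 23.2 to 78.7 and 85.5 (log2 1.63), and the water channel Aqp4 from 52.2 and 48.9 to 110 and 130 (log2 1.25). Clu rose by 1.02 (adjusted p = 0.0484), with an adjusted p between 0.121 and 0.187 whichever single library of these ages was left out. Not all markers of these cells moved: Rlbp1, the retinal-binding protein of the visual cycle, stood at 346 and 363 and then at 390 and 401. Aqp1, from the astrocyte list, rose from 12.8 and 15.1 CPM to 48.2 and 50.2 (log2 1.82, SE 0.182, adjusted p = 1.08e-05), while Gfap stood at 11.8 ± 2.5 and then at 12.5 ± 2.25 (mean ± SD, n = 2).

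Thyroid hormone sets the timing of cone opsins and of much of neural maturation, and the deiodinases control it locally. Dio2, which makes the active hormone, stood at 27.3 and 22.2 CPM at P10, at 92.3 and 95.7 at P14 and at 32.9 and 22.7 at P21. P14 was therefore a peak, with a log2 change from P10 of 1.93 (SE 0.31, adjusted p = 0.000426) and to P21 of -1.76. Dio3, which inactivates the hormone, was near 0 at P10 (0.0642 and 0.0329 CPM) and stood at 1.67 and 0.42 at P14. The other 4 genes of the list, receptors and transporters among them, did not pass.

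Vessel genes gave a few calls. Endothelial genes gave 2 risen members among 15 (median 0.61) and vessel barrier genes 2 among 10 (0.41). Slco1a4, an organic anion transporter of barrier vessels, went from 6 and 4.7 CPM to 21.4 and 15.8 (log2 1.80, SE 0.3, adjusted p = 0.000816). Abcb1a, the P-glycoprotein pump, rose from 4.08 and 3.88 to 18.6 and 56.4, but its libraries at P14 differed widely. Its log2 change was 3.24 (adjusted p = 0.0259), 2.23 without P14 replicate 2 (adjusted p = 0.217), 3.83 without P14 replicate 1, and 1.11 from summed transcripts, and without P10 replicates 1 and 2 its adjusted p was 0.121 and 0.171. Flt1, a VEGF receptor, rose by 1.44, with an adjusted p of 0.0668 without P10 replicate 2 and 0.0502 without P14 replicate 2. Cxcr4, a chemokine receptor of vessel tip cells, fell from 13.1 and 12.7 CPM to 5.31 and 5.29 (log2 -1.29, SE 0.154, adjusted p = 4.4e-05). The tight junction gene Cldn5 stood at 12.3 ± 0.305 and then at 18.5 ± 0.107 CPM (mean ± SD, n = 2, adjusted p = 0.348 with edgeR). None of the 4 norrin receptor genes passed with edgeR or DESeq2, and 1 had an unadjusted p under 0.05.

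Extracellular matrix genes gave 7 risen members among 28 (median 0.69). Tnr, a matrix protein around inhibitory neurons, stood at 90.7 and 71.8 CPM at P10, at 216 and 218 at P14 and at 86.3 and 106 at P21 (log2 1.42 from P10, SE 0.213, adjusted p = 0.000264). The basement membrane genes Col18a1 (1.42), Lamb2 (1.37), Col4a2 (1.12) and Col4a1 (1.05) rose as well. From P14 to P21 the median of the list was -1.06, so the matrix list stood lower again a week later. With both length and GC trends removed, Col18a1 changed by 0.95, Lamb2 by 0.94, Col4a1 by 0.64 and Col4a2 by 0.54. Col4a1 changed by 0.79 without P10 replicate 2 (adjusted p = 0.0743). P14 replicate 1 stood above P14 replicate 2 in Col18a1 (63.1 and 39.7 CPM) and in Col5a1 (13.8 and 6.68), whose rise of 1.14 was 0.53 without that library (adjusted p = 0.379). The median of the list was 0.58 without it. Mesenchyme markers summed to 10.8 and 6.87 CPM in these libraries against 5.81 and 5.46 at P10, with no member past both thresholds. The ciliary gene Optc was higher at P14, while pigment epithelium transcripts summed to 210 and 268 CPM at P10 and to 189 and 161 at P14. Whether neighbouring tissue had a part in the matrix values was not tested.

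Among genes of division and of immature neurons a few fell. The cell cycle list had 3 fallen genes among 22, with a median of -0.63. Of these Rrm2 changed by -1.26 on the log2 scale, and by -0.99 without P10 replicate 2, below 2-fold. Mcm7, a subunit of the replicative helicase, went from 33.6 and 34.3 CPM to 15.3 and 15.6 (log2 -1.14, SE 0.106, adjusted p = 7.14e-06). Mki67, the marker of cycling cells, stood at 6.19 and 5.82 and then at 3.28 and 1.87 (log2 -1.22), and changed by -0.87 without P14 replicate 2. At P6 it had stood at 77.2 and 100.0 CPM, so most of its decline lay before P10. Outside the list Aspm and Foxm1, genes of mitosis, rose by 1.23 and 1.45. Summed transcripts gave -0.63 for Aspm and 0.66 for Foxm1, and Aspm changed by 0.72 without P10 replicate 2 (adjusted p = 0.37), with an adjusted p of 0.152 and 0.108 without P14 replicates 1 and 2. The immature neuron list was mixed (median -0.18), and with no fold threshold 5 genes were higher and 7 lower. Of its 23 genes 2 fell: Cd24a, a surface protein of young neurons (54.7 and 61.6, then 23.1 and 24.8, log2 -1.28), and Tubb2b, a tubulin of growing axons (183 and 201, then 88.6 and 86.7, log2 -1.13). Dcx and Gap43, of migrating and axon-growing neurons, did not pass in this step and fell in the next, by 2.28 and 1.22 on the log2 scale from P14 to P21.

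Other cell types, metabolism and stress were covered by further lists. Of 18 microglia and complement genes 2 fell, the lysosomal Cd68 (4.08 and 3.68, then 1.8 and 1.39 CPM, log2 -1.28) and Fcrls, whose adjusted p lay between 0.071 and 0.186 whichever single library of these ages was left out. The list's summed level was 116 and 125 CPM at P10 and 112 and 116 at P14. With edgeR no gene passed both thresholds among 12 myelin, 19 oxidative phosphorylation, 22 ribosomal protein, 13 antioxidant, 19 apoptosis, 14 pigment epithelium, 22 crystallin and 6 red cell genes. At an unadjusted p under 0.05 these lists held 3, 5, 8, 2, 9, 2, 1 and 0 genes, and DESeq2 called 1 myelin gene lower and 0 in the others. The share of all tested genes at this unadjusted cut was not counted, here or for the horizontal, norrin receptor and mesenchyme lists. These numbers therefore have no background beside them. The lactate transporter Slc16a1 was the 1 gene of 23 in the glycolysis and lactate list to pass, near the 3.45% of all genes that rose. It went from 124 and 128 CPM to 247 and 272 (log2 1.04), and changed by 0.98 without P14 replicate 2. Pigment epithelium transcripts summed to 210.0 and 268 CPM at P10 and 189 and 161 at P14. The stress and gliosis list gave 4 risen genes among 16, against 3.45% of all genes, with a median of 1.23 that lay between 1.01 and 1.32 with 1 library left out. They were Lcn2 (1.47), a secreted protein of reactive glia, the cytokine Lif (2.39), and the heat shock genes Hspa1a (1.34) and Hspa1b (1.36), near-identical copies that reads cannot always separate. Lif stood at 0.16 and 0.296 CPM and then at 0.965 and 1.45 (adjusted p = 0.0486), with an adjusted p between 0.0894 and 0.233 whichever single library of these ages was left out. For Lcn2 it lay between 0.0722 and 0.111 without either P10 library or P14 replicate 2. For Hspa1a the adjusted p lay between 0.0532 and 0.104 without P10 replicate 1 or either P14 library.

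Among all genes with at least 10 CPM, the largest rises outside the lists included matrix genes with levels that returned by P21. Optc, the opticin gene known from the ciliary epithelium and vitreous, stood at 3.18 and 3.42 CPM at P10, at 43.2 and 20.7 at P14 and at 2.06 and 3.94 at P21 (log2 3.27, SE 0.364, adjusted p = 2.5e-05). Without P14 replicate 1 its change was 2.65. Fras1, of the basement membrane, went from 13.9 and 7.27 to 62.3 and 56.1 and back to 13.8 and 13.9 (log2 2.48), or by 1.18 from summed transcripts. Fbln1, of elastic fibres, went from 1.8 and 2.07 to 13.4 and 7.1 and back to 1.5 and 3.61 CPM (log2 2.41). Best2, a chloride channel known from the ciliary epithelium and named after its values were seen, had 0 and 0.0329 CPM at P10 and 1.42 and 1.07 at P14. The mesenchyme list had no member past both thresholds by edgeR or DESeq2 and 0 at an unadjusted p under 0.05. Whether tissue beside the retina had a part in these values was not tested. Pcsk1n, the inhibitor of Pcsk1, rose from 2.25 and 1.41 to 9.91 and 11 CPM and stayed at 16.5 and 15.6 at P21 (log2 2.51). Ece1, the endothelin-converting enzyme, rose by 2.47, but by 0.92 from summed transcripts.

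The largest falls were of other kinds. Tmem92, a membrane protein, stood at 11.8 and 12.3 CPM at P10 and at 0.225 and 0.42 at P14 (log2 -5.21, SE 0.492). It had stood at 59.2 and 52.1 at P6. H19, the imprinted noncoding RNA, went from 15.4 and 21 to 5.92 and 2.36 (log2 -2.13), and by -2.94 without P14 replicate 1. Fabp7, the fatty acid carrier of progenitors and young glia, fell from 32.5 and 37.9 to 10.7 and 9.59 (log2 -1.79, SE 0.186). The sulfotransferase Gal3st4 (-1.52) and the kinesin Kif19a (-1.57) also fell, and both stood below 5 CPM at P21. From P6 to P10 the log2 change was -2.77 for Fabp7, -1.32 for Gal3st4 and -0.21 for Kif19a. Cln3, the lysosomal gene of juvenile Batten disease, fell from 74.7 and 90 to 31.8 and 29.9 CPM and stood at 35.6 and 33.8 at P21 (log2 -1.42). Dynlt1b (-1.60) belongs to a cluster of near-identical dynein light chain genes, so its value is uncertain.

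The step was then set against a longer course in libraries it does not use, the mean of P21 and P28 against the mean of P4 and P6, where 3812 genes (17.4%) rose and 2951 (13.5%) fell. Of the 754 genes that rose from P10 to P14, 406 (53.8%) rose in the longer course, 40 (5.31%) fell and 308 did neither. Of the 235 that fell, 114 (48.5%) fell there and 28 (11.9%) rose. The sign was the same for 82% of the risen genes, 67.2% of the fallen genes and 59.7% of all tested genes. The highest age mean lay at P14 for 276 (36.6%) of the risen genes, against 9.54% of all genes, which the choice of genes high at P14 favours.

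**Figure D4:**
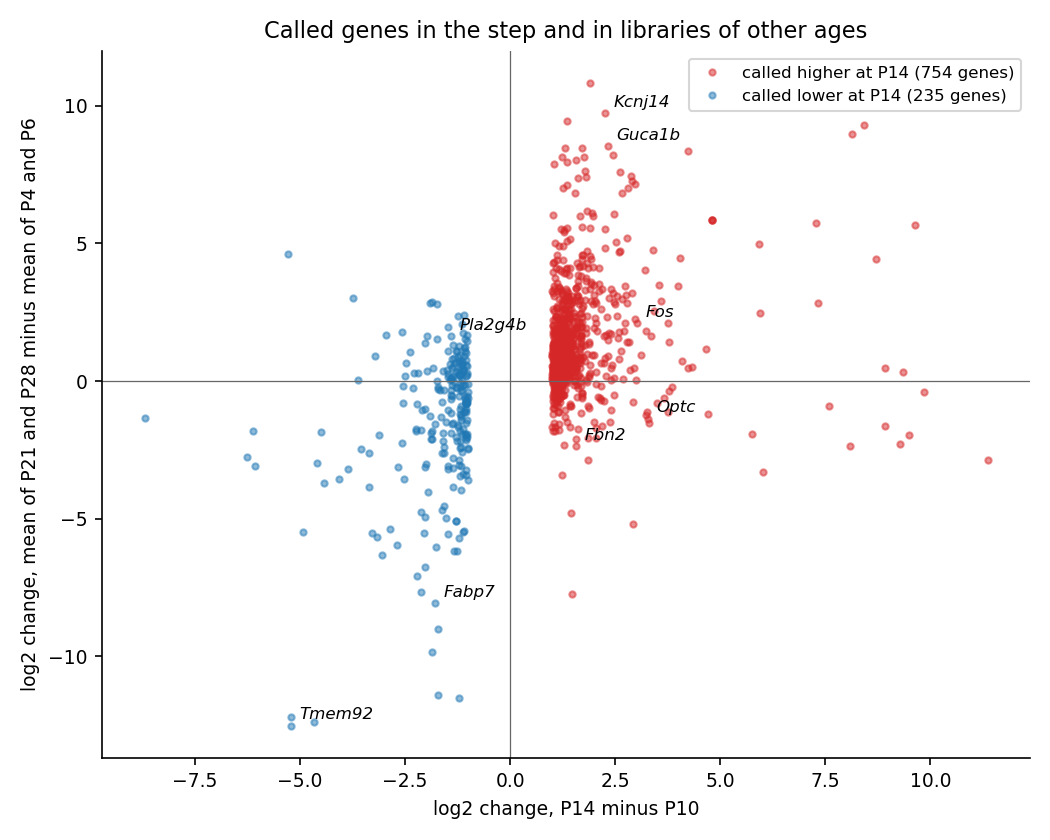
Log2 change from P10 to P14 against the log2 change from P4-P6 to P21-P28 for the genes past both thresholds from P10 to P14, 1 point per gene, with risen genes in red and fallen genes in blue. The risen genes lie mostly to one side, 618 of 754 with the same sign in both, and the fallen genes are spread more widely, 158 of 235. Values of genes without counts at an age depend on the prior count.

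Some genes went against the longer course. Slc25a37, the mitochondrial iron importer, stood at 69.9 and 71.7 CPM at P10, at 28.4 and 30.3 at P14 and at 61.3 and 67.1 at P21 (log2 -1.27, SE 0.186, adjusted p = 0.000219), a dip at P14. Pla2g4b, a phospholipase, showed the same form with 17 and 13.5, then 5.7 and 5.91, then 19.3 and 24.1. In the other direction Tiam1, an activator of Rac, stood at 54.7 and 41.5 CPM at P6, at 21.3 and 18.8 at P10 and at 48.8 and 50.6 at P14. Its adjusted p was 0.0634 without P10 replicate 2.

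Transcript length ran with the change. Genes averaging 5 CPM or more over both ages (12388 in all) were split by length into 10 bins of about equal number. The bin of the shortest transcripts had a median log2 change of -0.18, with 13 of 1239 genes risen, and that of the longest 0.29, with 126 of 1239. From P14 to P21 the median was -0.09 in the shortest bin and -0.27 in the longest, and from P6 to P10 it was -0.16 and 0.02. By GC content, 1.14% of the lowest bin and 8.88% of the highest rose. With the length trend of each library removed, 628 genes rose and 218 fell, 562 and 186 of them among the original calls, and with length and GC trends removed 577 and 217. With the length trend removed, list medians were 0.92 (immediate early), 0.69 (circadian clock), 0.78 (amacrine) and 0.53 (extracellular matrix). Before its removal they were 0.97, 0.87, 0.87 and 0.69. List medians with the GC trend removed as well are not reported here. Whether RNA quality had a part in the trend was not tested.

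**Figure D5:**
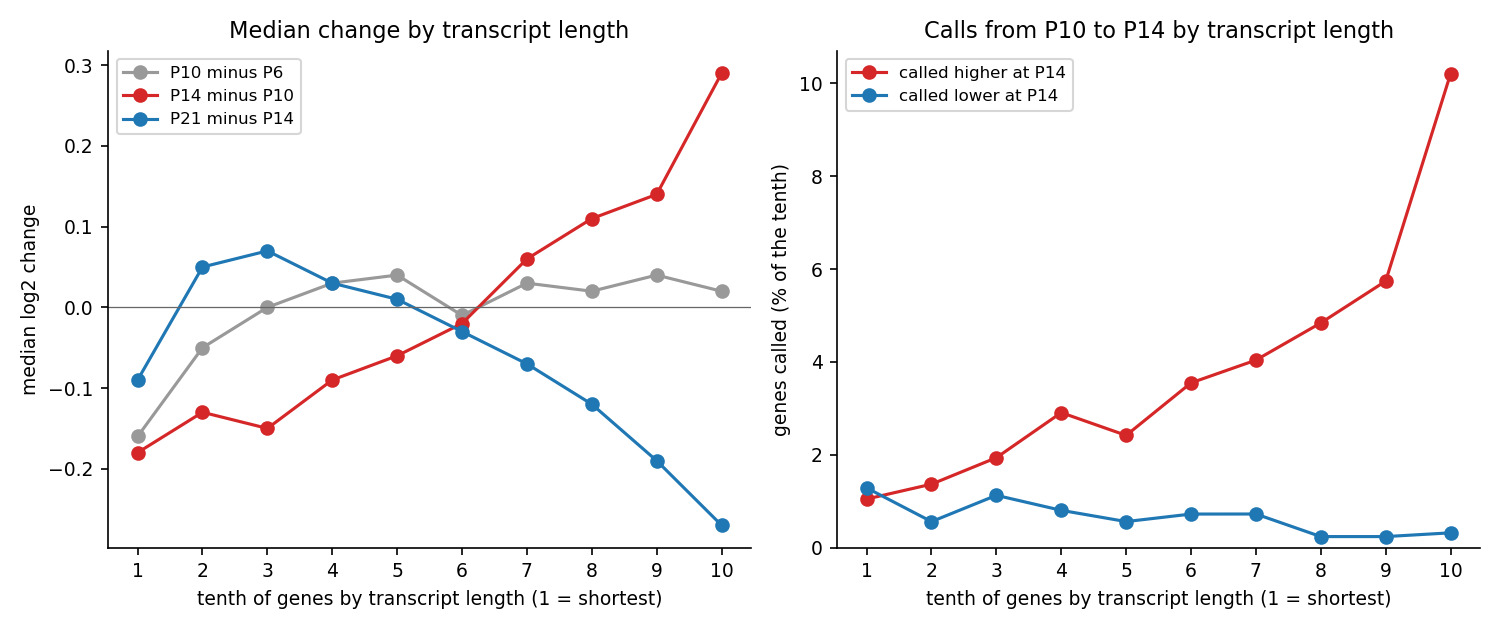
Median log2 change from P6 to P10 (grey), P10 to P14 (red) and P14 to P21 (blue), and the percentage of genes that rose (red) or fell (blue) from P10 to P14, in 10 bins of genes by transcript length, over 12388 genes. The P10 to P14 median goes from -0.18 in the bin of the shortest transcripts to 0.29 in that of the longest, and the risen genes from 13 to 126 of 1239.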

How the data were processed

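Retinal RNA of 12 ages was sequenced, 2 libraries per age, and the P10 and P14 libraries are compared here. The submitters' processing notes name build GRCm38.p5, kallisto 0.42.4 and edgeR 3.13.9 without their roles. The authors deposited estimated counts per gene (45594 genes) and per transcript (113468), which were rounded to whole numbers. Coordinates of genes are those of the deposited gene table. Promoters on the chromosome of Egr1 were left out of the motif search. Shares of all windows are therefore shares of the windows searched and not of the whole genome. The filter was filterByExpr by age (minimum count 10), which kept 21858 genes, and TMM factors scaled the libraries. edgeR 4.0.16 (limma 3.58.1, R 4.3.3) fitted a quasi-likelihood model with 1 coefficient per age to all 24 libraries, with 12 residual degrees of freedom, after a test on simulated data. P-values were Benjamini-Hochberg adjusted over all genes tested, and the standard error (SE) is the absolute log2 change over the square root of F.

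The members, 47 lists (708 symbols, 706 in the table, 695 tested) and rules were chosen with earlier results of these data known. Named genes were the 15 largest rises and falls at 10 CPM or more, up to 4 called genes per list, 30 followed genes, and 5 each against the longer course or with the largest fall from P14 to P21; others were chosen after their values were seen. Alternatives included DESeq2 1.42.0, other scalings and filters, a replicate block, single libraries left out and, added after seeing the data, removal of trends on transcript length and GC content. The deposited normalized CPM and differential expression tables were not used here. Single values of some list members are not reported here, while the counts and medians of their lists include them.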

Additional observations from a re-analysis of the deposited data

How the results depend on the processing

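Among the 135 called genes for which alternatives were run, only Aspm reversed, at -0.63 from summed transcripts, and the cause was not tested. With no fold threshold 2212 genes were higher and 1878 lower at P14, 5151 differed between P6 and P10, 6390 between P14 and P21 and 14166 between P4-P6 and P21-P28, and a test against a 2-fold change itself (glmTreat) called 51, 11, 410, 320 and 4226. Library size alone gave 353 lower genes. Leaving out 1 library gave 406 to 754 higher and 138 to 240 lower genes, from fits in which the lone library of an age is assumed to vary like the other ages; the cause of these differences was not tested. DESeq2 called 788 and 197, of which 680 and 180 were among the original calls, and summed transcripts 880 and 239. The alternatives were run for 135 called genes, those the naming rule chose and others the text names; 113 lost the call under at least 1 of them, the test against 2-fold included, and 22 under none. Depth limits the lowest genes: 66 risen and 46 fallen genes stayed under 1 CPM.

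P10 and P14 replicates share only a number in the labels: deviations of P10 replicate 1 and P14 replicate 1 from their age means had r = 0.108 over 8352 genes. With the replicate block 742 genes were higher and 232 lower, against 754 and 235, and of those 135 genes Clu, Glra3 and Lif lost the call.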

Other observations

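Noncoding transcripts made up more of the fallen than of the risen genes. Among the 235 genes that fell from P10 to P14, 129 (54.9%) were protein coding, against 660 of 754 (87.5%) that rose and 75.8% of all tested genes. Long intergenic noncoding RNAs accounted for 34 (14.5%) of the fallen and 19 (2.52%) of the risen genes, with 6.01% of all tested. Antisense transcripts accounted for 23 (9.79%) and 18 (2.39%), with 5.2% of all tested. Median transcript length was 1813 bases in the fallen and 3647 in the risen genes, and 46 of the fallen genes stayed under 1 CPM at P10. The difference in these shares was not tested.

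Prima1, the anchor of acetylcholinesterase in the membrane, chosen after its values were seen, stood at 0.642 and 0.658 CPM at P10 and at 7.53 and 7.65 at P14, with 0.35 and 5.82 in the P6 libraries. Its log2 change was 3.54 (SE 0.73, adjusted p = 0.00274 by the edgeR quasi-likelihood test), and 1.90 from summed transcripts. Cdk5rap1, which was among the largest falls, stood at 18.9 and 20.3 CPM at P10 and at 6.69 and 6.36 at P14 (log2 -1.58).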
